A study of Mus musculus with 10 samples.

Results

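Macrophages bind modified lipoproteins, bacterial surfaces, glycoproteins and dying cells through a diverse set of surface receptors, and the transcripts of 10 of these receptors are described here in leukemia cells treated with 4 epigenetic inhibitors. The genes are Mrc1, Msr1, Cd36, Marco, Mertk, Axl, Stab1, Olr1, Scarb1 and Cd163. They were taken by symbol, from a list of macrophage scavenger and apoptotic cell receptors, out of the 24015 genes in the table of read counts. Of those, 17450 were seen at all and 12971 passed the filter on low counts. All 10 receptor genes passed it, but Cd36 and Marco did so through inhibitor libraries alone, since no DMSO or iBET library reached the filter's cutoff of 0.428 counts per 1000000 reads for either gene. Mertk reached this cutoff in 1 DMSO library and in both libraries of every inhibitor group. Cd163 reached it in 1 DMSO library, and in both libraries of the MM-401 and iBET groups only.

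The RNA came from MAF9 cells, which are bone marrow cells of mice of C57BL/6 genotype carrying the transduced fusion gene MLL-AF9, in 5 groups of 2 libraries each. The DMSO group was the mock treatment, and the other groups received MM-401, which blocks the binding of MLL1 to WDR5, EPZ5676, which inhibits the histone methyltransferase DOT1L, MI-2-2, which blocks the binding of MENIN to MLL proteins, or iBET, an inhibitor of BET bromodomain proteins. Every group was grown in medium with 15% serum and 10 ng/ml interleukin-3 and was treated for 4 days, with each inhibitor at its own IC50 dose. The libraries are bulk samples of a transduced culture, so that fewer cells of a type and less RNA per cell cannot be told apart in any result below.

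Scavenger receptors bind polyanionic ligands such as oxidised low-density lipoprotein and bacterial surface molecules, and most of them deliver their cargo to the lysosome. Efferocytosis, the removal of apoptotic cells, runs through receptors that either bind phosphatidylserine on the dying cell directly or reach it through a bridging protein, as the kinases Mertk and Axl do through Gas6 and protein S. In the myeloid lineage many of these receptors appear as monocytes become macrophages.

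The libraries held between 20394762 and 29473127 counted reads. Counts were scaled to counts per 1000000 reads with TMM factors (CPM), so that 1 read was worth between 0.0365 and 0.0485 CPM. The second DMSO library stood apart. It had 3630 reads on 4 Y-linked genes where the other libraries had 0 to 2, and 4.65 CPM of Xist where the others had 1026 to 2818 CPM. Between the DMSO libraries 19.3% of the tested genes were more than 2-fold apart, against 3.42% to 6.07% within the inhibitor groups. Of the receptor genes, Axl and Cd163 differed most between the DMSO libraries, and the receptor genes' comparisons with DMSO are also given below without each of these libraries.

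The promoters of the receptor genes that rose with EPZ5676 or MI-2-2 are shown first, as the stretches before the genes whose levels changed most. Sequences were read from RefSeq on GRCm38.p6, in which 8 of the 10 genes were matched and Msr1 and Scarb1 were not. Each line below gives the 250 bases before the annotated start, 5′ to 3′ on the strand of the gene, and capitals mark matches to GAGGAAG on either strand, a core of the sites bound by PU.1. PU.1 is the ETS family factor that is required for macrophage formation.
Mrc1 (chr2:14229164-14229413, plus strand): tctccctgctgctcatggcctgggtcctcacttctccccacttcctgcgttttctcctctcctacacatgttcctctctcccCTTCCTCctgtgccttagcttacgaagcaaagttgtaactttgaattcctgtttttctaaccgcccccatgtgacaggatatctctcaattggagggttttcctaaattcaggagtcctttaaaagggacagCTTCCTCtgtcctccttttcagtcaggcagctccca
Marco (chr1:120505025-120505274, minus strand): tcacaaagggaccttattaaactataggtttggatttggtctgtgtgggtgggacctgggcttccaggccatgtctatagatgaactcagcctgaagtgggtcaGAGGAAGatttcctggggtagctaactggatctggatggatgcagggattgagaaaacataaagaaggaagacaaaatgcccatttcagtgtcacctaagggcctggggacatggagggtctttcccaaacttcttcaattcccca
Cd36 (chr5:17835897-17836146, minus strand): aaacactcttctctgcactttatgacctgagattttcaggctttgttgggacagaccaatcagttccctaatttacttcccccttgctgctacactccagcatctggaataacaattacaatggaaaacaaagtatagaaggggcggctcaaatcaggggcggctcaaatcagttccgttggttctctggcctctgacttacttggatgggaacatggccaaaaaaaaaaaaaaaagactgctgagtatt
Mertk (chr2:128698665-128698914, plus strand): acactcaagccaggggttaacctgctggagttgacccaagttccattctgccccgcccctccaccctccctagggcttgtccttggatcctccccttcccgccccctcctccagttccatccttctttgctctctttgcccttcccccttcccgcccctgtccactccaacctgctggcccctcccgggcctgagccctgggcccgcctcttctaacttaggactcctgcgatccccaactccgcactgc
The Mrc1 promoter held 2 matches, whose first bases lay 168 and 36 bases before the start, and the Marco promoter held 1 match, at 146 bases. The windows of Cd36 and Mertk held none. Over the 8 promoters, 3 held the motif, the third being Axl with a match at 131 bases, against 10.6% of all 32851 promoters of the table. The AP-1 motif TGANTCA was found in 1 of the 8, at 60 bases before the start of Olr1, against 6.75% of all promoters. None of the 8 held the C/EBP motif TTGCNNAA, the MAF recognition motif TGCTGAC or the TATA box TATAAA, which were present in 9.56%, 3.81% and 12.4% of all promoters. All motifs were searched on both strands, and no match of 1 motif overlapped a match of another in these windows.

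Against DMSO, 5 of the 10 receptor genes rose with EPZ5676, namely Mrc1, Msr1, Cd36, Marco and Mertk, while Olr1 and Stab1 fell. Over all tested genes 18.7% rose and 19.4% fell in that comparison, at an adjusted p below 0.05 in the quasi-likelihood test of edgeR (Benjamini-Hochberg adjustment), the test behind every adjusted p given here unless another is named. With MI-2-2, Mrc1, Msr1, Cd36, Marco and Mertk rose and Olr1 and Stab1 fell, where 20.2% of all tested genes rose and 21.2% fell. With iBET none of the 10 rose, and Olr1, Axl and Stab1 fell, where 6.38% of tested genes rose and 7.54% fell. With MM-401 no receptor gene and 0% of tested genes passed, the smallest adjusted p of any gene being 0.135. At an unadjusted p below 0.05, that comparison held 6 receptor genes and 1450 genes in all, DESeq2 called 3 receptor genes, where it called 2.14% of all genes, and edgeR called 3, Marco, Axl and Cd163, without the first DMSO library, where 10.2% of all genes passed. The iBET count fell to 0 without the first or the second iBET library, where 1.96% and 1.12% of all genes passed, and was 4 without the first DMSO library, with Cd163 added, where 27.9% passed. These 4 comparisons share the DMSO libraries, and the counts for Cd36 and Marco carry no weight of their own, because both genes passed the filter through the groups in which they were high. Mertk reached the filter's cutoff in 1 DMSO library only, so it too passed with the help of inhibitor libraries in which it was higher. Cd163 also reached it in 1 DMSO library only, the first. Without that library the Cd163 control held 0 reads, so its calls in that setting carry no weight.

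**Figure D1:**
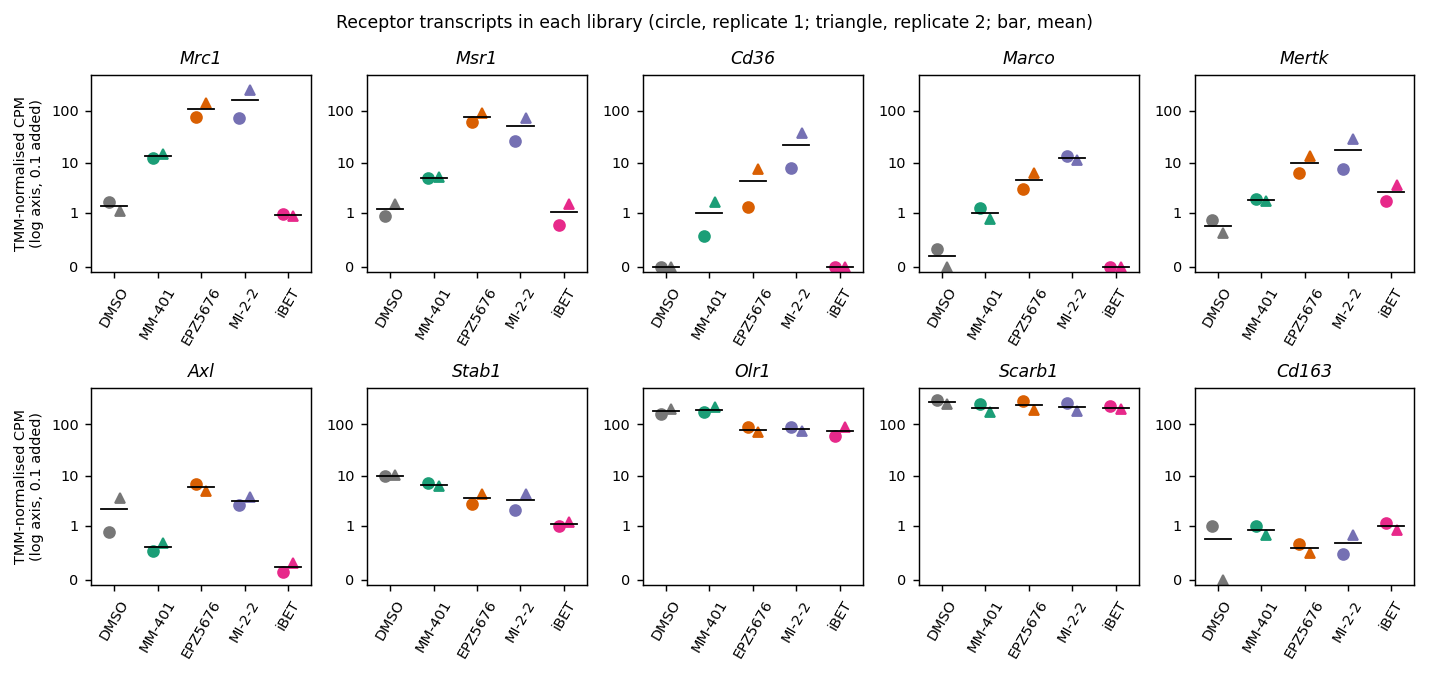
Level of each receptor gene in every library, in TMM-normalised CPM on a log axis with 0.1 added, for the 5 groups of 2 libraries (circle, replicate 1; triangle, replicate 2; bar, mean). Mrc1, Msr1, Marco and Mertk lay highest in the EPZ5676 and MI-2-2 libraries, Cd36 and Marco had no read in iBET, and Scarb1 stayed between 174 and 295 CPM throughout.

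Mrc1, the mannose receptor, a C-type lectin that takes up glycoproteins with terminal mannose, had the largest rise in CPM. Its level was 1.67 and 1.06 CPM in the DMSO libraries, 12.5 and 14.4 with MM-401, 75.0 and 142 with EPZ5676, 71.9 and 247 with MI-2-2, and 0.928 and 0.842 with iBET. The EPZ5676, MI-2-2 and MM-401 libraries all lay above the DMSO libraries, and both iBET libraries lay below them. The log2 fold change against DMSO was 6.29 with EPZ5676 (SE 0.69, adjusted p = 0.000819) and 6.85 with MI-2-2 (SE 0.70, adjusted p = 0.000676). With MM-401 it was 3.28 (SE 0.64, adjusted p = 0.259), and with iBET -0.64 (SE 0.77, adjusted p = 0.605). For MM-401 against DMSO, DESeq2 gave 3.30 with an adjusted p of 2.53e-06. The MI-2-2 libraries were 3.43-fold apart, and without the second of them the MI-2-2 change was 5.70 and without the first 7.48, both past the threshold. With EPZ5676 the change ran from 5.76 without the second EPZ5676 library to 6.69 without the first. Without the first or the second DMSO library it was 6.68 or 6.04 with EPZ5676 and 7.24 or 6.6 with MI-2-2, all past the threshold, and 3.67 or 2.98 with MM-401 and -0.25 or -0.92 with iBET, none of them past it.

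Msr1, the class A macrophage scavenger receptor for modified lipoproteins, was higher with EPZ5676 than with any other treatment in mean level. It stood at 0.857 and 1.49 CPM in DMSO, 5.07 and 5.13 with MM-401, 59.9 and 90.3 with EPZ5676, 26.6 and 73.8 with MI-2-2, and 0.530 and 1.49 with iBET. The iBET and DMSO libraries overlapped, and the other groups did not overlap DMSO. The log2 fold change against DMSO was 6.01 with EPZ5676 (SE 0.66, adjusted p = 0.000824) and 5.43 with MI-2-2 (SE 0.65, adjusted p = 0.000976). With MM-401 it was 2.13 (SE 0.61, adjusted p = 0.316; DESeq2 adjusted p = 0.0146). In iBET it was -0.17, with a 95% interval from -1.73 to 1.39, and without the second DMSO library it turned to 0.27. Leaving out the second MI-2-2 library gave 4.52 and leaving out the first gave 5.99, and the EPZ5676 change lay between 5.66 without the first DMSO library and 6.47 without the second. In the same order the MI-2-2 change was 5.08 and 5.90, both past the threshold, and the MM-401 change 1.78 and 2.55, both short of it.

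Marco, a class A receptor with a collagenous stalk that binds bacteria and unopsonised particles, was nearly absent from the mock-treated cells. It had 3 reads in the first DMSO library and 0 in the second, hence 0.117 and 0 CPM, and 0 reads in both iBET libraries. Its level was 1.27 and 0.714 CPM with MM-401, 3.01 and 6.21 with EPZ5676, and 13.3 and 11.2 with MI-2-2, so that none of these groups overlapped DMSO. Over the group, the 194 reads of EPZ5676 were 71.9 times the DMSO reads after scaling, with an exact binomial 95% interval from 24.2 to 352 (adjusted p = 0.00240). The ratio was 188 with MI-2-2, from 64.1 to 915 (adjusted p = 0.00118), and 15.4 with MM-401, from 4.95 to 77.2 (adjusted p = 0.292). Such intervals cover counting error only. DESeq2 called the MM-401 difference (adjusted p = 0.0111), and edgeR did so without the first DMSO library, which held all 3 reads (adjusted p = 0.0357). The EPZ5676 and MI-2-2 calls remained without that library (adjusted p = 0.00151 and 0.000633), against a control of 0 reads, and without the second, with log2 fold changes of 5.26 and 6.68 (adjusted p = 0.00422 and 0.00187).

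Cd36, the class B receptor for fatty acids, oxidised lipoprotein and thrombospondin, had 0 reads in both DMSO and both iBET libraries. It reached 0.296 and 1.64 CPM with MM-401, 1.31 and 7.39 with EPZ5676, and 7.89 and 36.8 with MI-2-2. The second library of each of these groups was 4.67- to 5.64-fold above the first, the widest spread of any receptor gene in the MI-2-2 group. Set against 3 reads over the DMSO group, Cd36 was at least 68.2-fold higher with EPZ5676 (adjusted p = 0.0249), at least 366-fold higher with MI-2-2 (adjusted p = 0.00934) and at least 15.0-fold higher with MM-401 (adjusted p = 0.402). The EPZ5676 call was lost without the first DMSO library (adjusted p = 0.0607), the second DMSO library (0.0648) or the second EPZ5676 library (0.0875). The MI-2-2 call remained with any 1 library left out.

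Mertk and Axl are TAM receptor tyrosine kinases that recognise apoptotic cells through Gas6 and protein S. Mertk stood at 0.701 and 0.336 CPM in DMSO, 1.94 and 1.77 with MM-401, 6.36 and 13.6 with EPZ5676, 7.59 and 28.1 with MI-2-2, and 1.72 and 3.6 with iBET. Every inhibitor library lay above both DMSO libraries. The change on the log2 scale was 4.23 with EPZ5676 (SE 0.79, adjusted p = 0.00526) and 5.07 with MI-2-2 (SE 0.81, adjusted p = 0.00264), and 1.81 with MM-401 (SE 0.77, adjusted p = 0.445). With iBET it was 2.33 (SE 0.77, adjusted p = 0.0808), which DESeq2 called (adjusted p = 0.0125). The MI-2-2 change lay at 3.84 without the second MI-2-2 library and at 5.73 without the first, and the EPZ5676 change between 3.58 without the second EPZ5676 library and 4.87 without the first DMSO library. Without the first or the second DMSO library the MI-2-2 change was 5.72 or 4.69, past the threshold, and that of MM-401 was 2.45 or 1.38 and that of iBET 2.98 or 1.92, short of it.

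Axl, which encodes the second of these kinases, fell with iBET, and its other comparisons with DMSO turned on the control library used. Its level was 0.740 and 3.74 CPM in DMSO, 0.254 and 0.420 with MM-401, 6.99 and 5.08 with EPZ5676, 2.69 and 3.84 with MI-2-2, and 0.0442 and 0.115 with iBET. The DMSO libraries were thus 5.05-fold apart, and the MI-2-2 libraries overlapped them. The change with iBET was -4.68 on the log2 scale (SE 0.92, adjusted p = 0.0172). It was -5.42 without the first DMSO library and -3.10 without the second, both past the threshold, and it lost its call without the first iBET library (-4.21, adjusted p = 0.124) or the second (-5.49, adjusted p = 0.103). With EPZ5676 the change was 1.44 (SE 0.67, adjusted p = 0.125), 3.05 without the second DMSO library (adjusted p = 0.00433) and 0.69 without the first (adjusted p = 0.201). A block on replicate number pairs libraries across the groups. The second DMSO library differed from the other second libraries in Y-linked reads and Xist, so what it shares with them is not known. With this block, the EPZ5676 change was 1.71 (SE 0.59, adjusted p = 0.0471). With MI-2-2 it was 0.55 (SE 0.67, adjusted p = 0.530), 2.17 without the second DMSO library (adjusted p = 0.0131) and -0.19 without the first (adjusted p = 0.717). The MM-401 change was -2.70 (SE 0.77, adjusted p = 0.316), -3.45 without the first DMSO library (adjusted p = 0.00521) and -1.14 without the second (adjusted p = 0.244).

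Stab1, a multidomain receptor of macrophages and sinusoidal endothelium that binds phosphatidylserine and extracellular matrix fragments, was highest in DMSO. It stood at 9.81 and 10.5 CPM there, 7.10 and 6.26 with MM-401, 2.81 and 4.43 with EPZ5676, 2.17 and 4.49 with MI-2-2, and 1.02 and 1.22 with iBET. All 8 inhibitor libraries lay below both DMSO libraries, which differed by 1.07-fold. The log2 fold change was -3.17 with iBET (SE 0.42, adjusted p = 0.00523), -1.49 with EPZ5676 (SE 0.38, adjusted p = 0.0185), -1.60 with MI-2-2 (SE 0.38, adjusted p = 0.0126) and -0.60 with MM-401 (SE 0.37, adjusted p = 0.601). The call was lost for EPZ5676 without its first library (-1.19, adjusted p = 0.108), for MI-2-2 without its first library (-1.17, adjusted p = 0.0611) and for iBET without its first (-3.04, adjusted p = 0.0546) or second library (-3.31, adjusted p = 0.0540). With the first or the second DMSO library left out, the change was -1.53 or -1.41 with EPZ5676, -1.64 or -1.52 with MI-2-2 and -3.21 or -3.12 with iBET, all past the threshold, and -0.65 or -0.57 with MM-401.

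Olr1, also called LOX-1, the C-type lectin-like receptor for oxidised low-density lipoprotein, was abundant in the mock-treated cells. It was at 156 and 196 CPM in DMSO and 168 and 212 with MM-401, and at 86.8 and 69.8 with EPZ5676, 88.1 and 73.1 with MI-2-2, and 59.9 and 88.7 with iBET. The EPZ5676, MI-2-2 and iBET libraries lay below all DMSO and MM-401 libraries. The log2 fold change was -1.16 with EPZ5676 (SE 0.23, adjusted p = 0.00675), -1.12 with MI-2-2 (SE 0.23, adjusted p = 0.00699) and -1.24 with iBET (SE 0.23, adjusted p = 0.0148). With MM-401 it was 0.12, with a 95% interval from -0.41 to 0.64. These calls were lost for EPZ5676 without its second library (-1.01, adjusted p = 0.0549), for MI-2-2 without its second library (-0.99, adjusted p = 0.0582) and for iBET without its first (-0.98, adjusted p = 0.1) or second library (-1.55, adjusted p = 0.0506). They remained without the first or the second DMSO library, at -1.32 or -0.97 with EPZ5676, -1.27 or -0.91 with MI-2-2 and -1.39 or -1.07 with iBET, while MM-401 stood at -0.04 or 0.27.

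Scarb1, the receptor for high-density lipoprotein that mediates selective uptake of cholesteryl esters, had the most reads of the 10 genes in DMSO. It lay between 174 CPM in the second MM-401 library and 295 CPM in the first DMSO library. No comparison with DMSO passed the threshold. Its log2 fold change was -0.22 with EPZ5676 (95% interval -0.83 to 0.39), -0.33 with MI-2-2 (-0.94 to 0.28), -0.37 with MM-401 (-0.98 to 0.24) and -0.37 with iBET (-0.98 to 0.24). Changes beyond 2-fold lay outside all 4 intervals. With the first or the second DMSO library left out, the values were -0.08 or -0.32 with EPZ5676, -0.19 or -0.42 with MI-2-2, -0.22 or -0.51 with MM-401 and -0.22 or -0.50 with iBET, with no call.

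Cd163, the macrophage receptor for haemoglobin bound to haptoglobin, was near the detection limit in every library. It had 26 and 0 reads in DMSO, 24 and 15 with MM-401, 8 and 5 with EPZ5676, 5 and 17 with MI-2-2, and 26 and 21 with iBET. The highest level was 1.15 CPM, in the first iBET library. Its comparisons with DMSO rested on the first control library. Its log2 fold change was -0.74 with EPZ5676 (95% interval -3.51 to 2.04), -0.30 with MI-2-2 (-2.94 to 2.34), 0.65 with MM-401 (-1.9 to 3.2) and 0.89 with iBET (-1.64 to 3.42). Without the first DMSO library, the control was left at 0 reads and the fitted values, which are no bound on the change, became 5.88 with EPZ5676 (adjusted p = 0.0356), 6.33 with MI-2-2 (0.0204), 7.27 with MM-401 (0.0340) and 7.51 with iBET (0.0133). Without the second they were -1.66, -1.20, -0.32 and -0.06 in the same order, with no call.

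**Figure D2:**
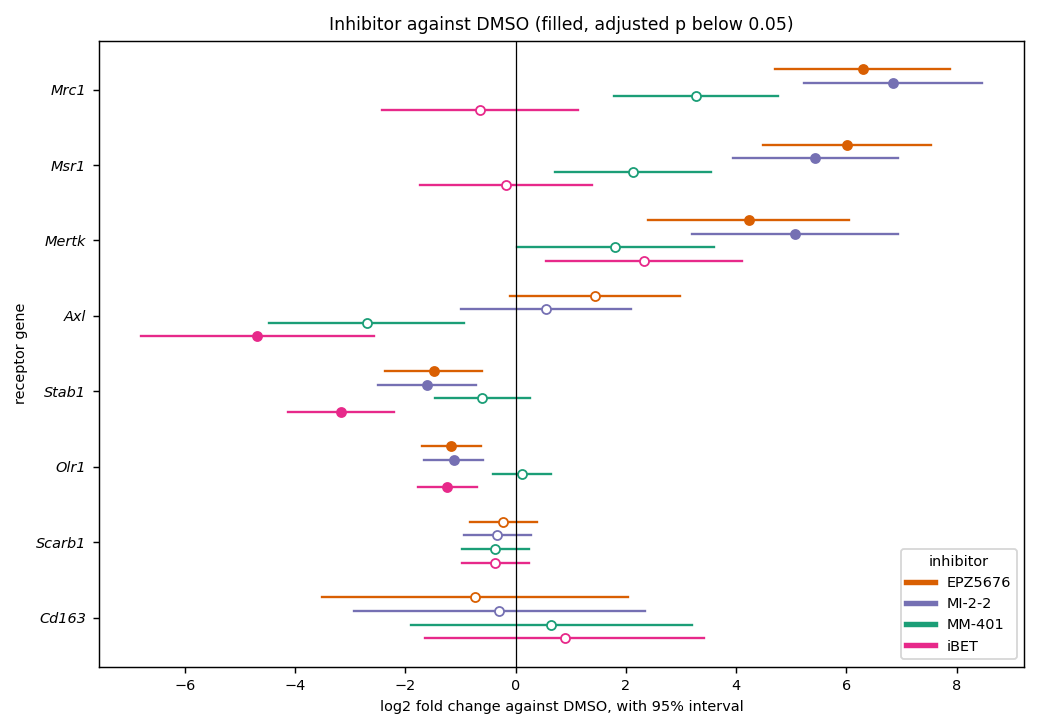
Log2 fold change of each receptor gene against DMSO with its 95% interval, for the 4 inhibitors (2 libraries each; filled circles, adjusted p below 0.05). Cd36 and Marco are not drawn, since they had 0 and 3 reads in DMSO. Mrc1, Msr1 and Mertk lie far to the right with EPZ5676 and MI-2-2, Stab1 and Olr1 to the left, and the 4 intervals of Scarb1 cross 0.

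The inhibitors were next compared with each other, which leaves the DMSO levels out of the contrast. Between EPZ5676 and MI-2-2 no receptor gene passed the threshold in edgeR or in DESeq2, where 0.0154% of tested genes did in edgeR. At an unadjusted p below 0.05 there were 937 genes, and 1 of them was a receptor gene, Marco, at -1.40 on the log2 scale for EPZ5676 over MI-2-2 (SE 0.57, unadjusted p = 0.0435, adjusted p = 0.663). The libraries of these inhibitors did not overlap for 3 receptor genes, where those of 39.4% of all tested genes did not. These were Marco, Cd36, whose difference was -2.36 with a 95% interval from -5.16 to 0.44, and Axl, which was higher with EPZ5676, at 0.88 (-0.63 to 2.40). Wide intervals were also found for Mrc1, from -1.74 to 0.64, for Msr1, from -0.59 to 1.75, and for Mertk, from -2.35 to 0.66, so a difference of over 2-fold in at least 1 direction lay within each of them. Stab1 was narrower, at 0.12 (-0.76 to 1.0), as was Olr1, at -0.04 (-0.57 to 0.49).

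EPZ5676 stood above MM-401 for Axl, Msr1, Mrc1, Mertk and Marco and below it for Olr1. That made 5 of 10 receptor genes higher, where 16.7% of all tested genes were, and 1 lower, where 16.6% were. The largest difference was that of Axl, at 4.14 on the log2 scale (SE 0.78, adjusted p = 0.00674), followed by Msr1 at 3.88 (SE 0.58, adjusted p = 0.00291), Mrc1 at 3.02 (SE 0.56, adjusted p = 0.00639), Mertk at 2.42 (SE 0.70, adjusted p = 0.0320) and Marco at 2.21 (SE 0.61, adjusted p = 0.0317). Olr1 differed by -1.28 (SE 0.23, adjusted p = 0.00572). For Cd36 the difference was 2.16 (SE 1.21, adjusted p = 0.216), and with the replicate block it was 2.14 (SE 0.28, adjusted p = 0.00334), the second library being the higher one in both groups. Only Msr1 and Olr1 kept their calls without the first MM-401 library, and Axl, Msr1 and Olr1 did without the second. Mertk and Marco also lost theirs without the second EPZ5676 library (adjusted p = 0.159 and 0.168).

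MI-2-2 stood above MM-401 for Cd36, Marco, Mrc1, Msr1, Mertk and Axl and below it for Olr1. These were 6 receptor genes higher, where 18.0% of tested genes were, and 1 lower, where 17.6% were. Cd36 passed the filter through the EPZ5676 and MI-2-2 groups, in which it was high, and carries no weight in this count. Cd36 differed by 4.52 on the log2 scale (SE 1.29, adjusted p = 0.0393) and Marco by 3.62 (SE 0.63, adjusted p = 0.00617). The differences of Mrc1, Msr1, Mertk and Axl lay between 3.26 and 3.57, with adjusted p from 0.00365 to 0.0143. Olr1 differed by -1.24 (SE 0.23, adjusted p = 0.00593). Stab1 differed by -1.0 (SE 0.38, adjusted p = 0.0731), by -1.07 with the replicate block (adjusted p = 0.0307), by -1.14 with total-count scaling (0.0392) and by -1.62 without the second MI-2-2 library (0.0402). The count of 7 calls was smaller without the first or the second MM-401 library or the second MI-2-2 library. The share of all tested genes called was smaller there too. Mrc1 and Msr1 passed the threshold in each of those settings.

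**Figure D3:**
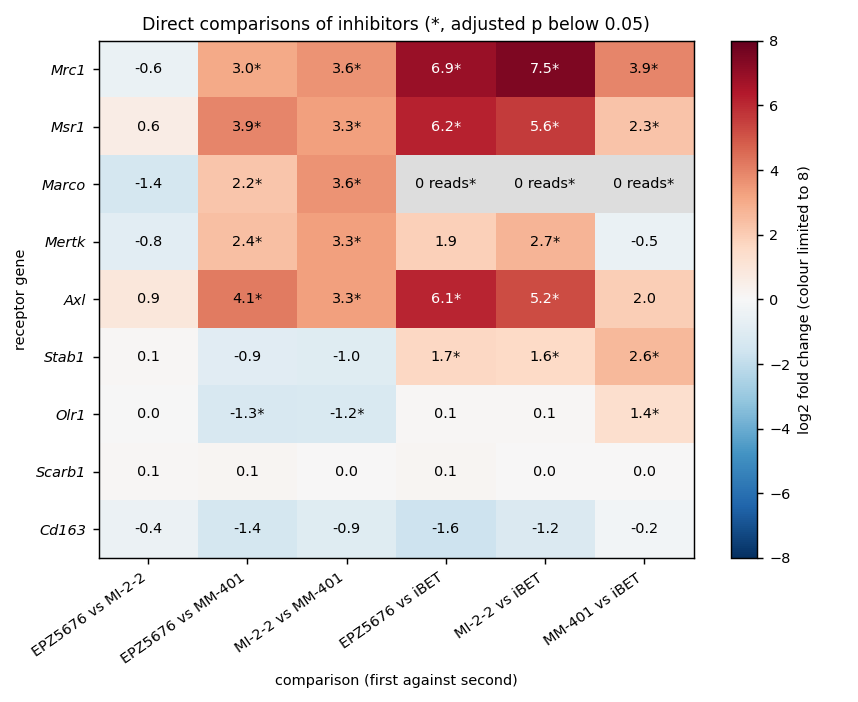
Log2 fold change of 9 receptor genes (rows; Cd36 is left out) in the 6 direct comparisons of inhibitors (columns, first over second; 2 libraries each), with an asterisk where adjusted p was below 0.05 and grey where iBET had 0 reads. The first column holds no asterisk, and no value in the Scarb1 row is above 0.15 or below 0.

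iBET lay below each of the other inhibitors for several receptors. Against iBET, EPZ5676 was higher for Mrc1, Msr1, Axl, Stab1, Cd36 and Marco, 6 genes where 19.1% of tested genes were higher, and lower for none, where 18.5% were lower. MI-2-2 was higher for Mrc1, Msr1, Axl, Stab1, Cd36, Marco and Mertk, 7 genes where 19.7% of tested genes were higher, and lower for none, where 19.1% were lower. MM-401 was higher for Mrc1, Msr1, Marco, Stab1 and Olr1, 5 genes where 5.96% of tested genes were higher, and lower for none, where 5.48% were lower. These comparisons share the iBET libraries. Cd36 and Marco had no iBET read and passed the filter through the groups in which they were high, so they carry no weight in these counts, which without them are 4, 5 and 4.

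The Axl difference over iBET was 6.12 on the log2 scale with EPZ5676 (SE 0.92, adjusted p = 0.00208) and 5.24 with MI-2-2 (SE 0.91, adjusted p = 0.00392), and 1.98 with MM-401 (SE 1.01, adjusted p = 0.248). For Mrc1 it was 6.94, 7.49 and 3.92 in the same order (adjusted p = 0.000474, 0.000448 and 0.0126). For Msr1 it was 6.18, 5.61 and 2.31 (adjusted p = 0.000537, 0.000830 and 0.04997). Stab1 was thus lowest with iBET, by 1.69 on the log2 scale against EPZ5676 (adjusted p = 0.0138), 1.57 against MI-2-2 (0.0181) and 2.57 against MM-401 (0.00968). Marco and Cd36 had 0 iBET reads. Against 3 reads over the iBET group, Marco was at least 75.3-fold higher with EPZ5676, 197-fold with MI-2-2 and 16.1-fold with MM-401, and Cd36 at least 71.5-, 383- and 15.8-fold, the last of these without a call (adjusted p = 0.139) except with the replicate block (0.00381) or in DESeq2 (0.0134).

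Mertk, the kinase that stood above DMSO in every inhibitor library, was called lower with iBET than with MI-2-2 only. EPZ5676 exceeded iBET by 1.90 (SE 0.68, adjusted p = 0.0602), or 1.89 with the replicate block (adjusted p = 0.0265), and DESeq2 gave an adjusted p of 0.0130. MI-2-2 exceeded it by 2.74 (SE 0.70, adjusted p = 0.0177), which was 1.51 without the second MI-2-2 library (adjusted p = 0.125). MM-401 differed from it by -0.52, with a 95% interval from -2.12 to 1.07. Of the 5 calls of MM-401 over iBET, Olr1 alone passed without the first MM-401 library or the second iBET library, and none did without the second MM-401 library or the first iBET library, while the share of all genes called fell from 5.96% higher and 5.48% lower to between 1.37% and 2.05% in all. The differences themselves stayed between 3.82 and 4.01 on the log2 scale for Mrc1, 2.44 and 2.71 for Stab1, 1.77 and 3.25 for Msr1 and 1.10 and 1.66 for Olr1 in these 4 settings. Of the calls over iBET, Stab1 lost those of EPZ5676 (1.32, adjusted p = 0.0805) and MI-2-2 (0.95, adjusted p = 0.117) without the second library of that inhibitor, and both, at 1.44 to 1.83, without either iBET library. Cd36 lost that of EPZ5676 without the second EPZ5676 library or either iBET library, and that of MI-2-2 without the second iBET library. Mertk lost that of MI-2-2 without either iBET library (2.31 and 3.37). In these settings the share of all tested genes called was smaller too.

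To set the genes beside each other, reads were also divided by exon length (RPKM, with merged exon lengths from the GENCODE M21 annotation of GRCm38, which is not the mm9 build of the files). In DMSO, Olr1 at 49.1 RPKM and Scarb1 at 31.7 RPKM stood far above the others, the next being Stab1 at 0.987. MM-401 left that order at the top, with Olr1 at 53.2, Scarb1 at 24.6 and then Mrc1 at 2.11 RPKM. With EPZ5676, Scarb1 at 27.2, Olr1 at 21.9 and Mrc1 at 17.1 RPKM could not be ranked, since the ranges of their 2 libraries overlapped. Msr1 at 11.8 RPKM overlapped Mrc1. With MI-2-2, Scarb1 at 25.2, Mrc1 at 25 and Olr1 at 22.6 RPKM could not be ranked, since the Mrc1 libraries spanned both others. With iBET, Scarb1 at 24.6 and Olr1 at 20.8 RPKM could not be ranked, since the Olr1 libraries, at 16.8 and 24.8, overlapped those of Scarb1, at 26.0 and 23.1, and Mertk was next at 0.614 RPKM. Cd163 was at or below 0.179 RPKM in every group.

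**Figure D4:**
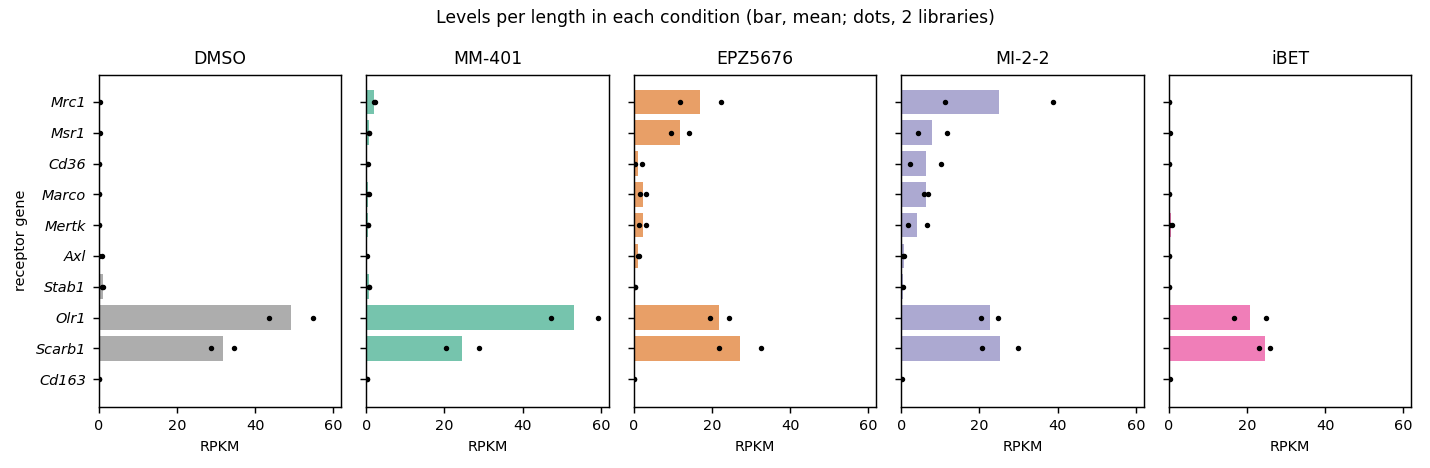
Mean level per exon length (RPKM, bars from 0) of the 10 receptor genes in each of the 5 groups, with dots for the 2 libraries. In DMSO, MM-401 and iBET the signal lies in Olr1 and Scarb1, and with EPZ5676 and MI-2-2 Mrc1 and Msr1 join them.

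For each receptor gene, the tested genes with the nearest profile over the 10 libraries were found from the root mean square difference between log2 CPM profiles centred on their own means, and are given as a description. Mertk lay nearest to Gas6, which encodes its ligand, at 0.436, and then to Mfge8 at 0.485, where the median gene was at 1.82. Gas6 was at 0.0389 and 0 CPM in DMSO, 0.970 and 2.21 with EPZ5676 and 0.520 and 3.58 with MI-2-2, so its profile rests on low counts. Mrc1 lay nearest to the C-type lectin genes Clec4b2 at 0.518 and Clec4n at 0.589, against a median of 3.05. Cd36 lay nearest to Atp6v0d2 at 1.00 and to the macrophage elastase Mmp12 at 1.02, against 3.14. Msr1 was followed by Tbc1d9 at 0.447, Slc9a4 at 0.447 and the complement receptor C3ar1 at 0.465, Marco by Il1rn at 0.529 and Il18 at 0.589, and Axl by Me1 at 0.428. Scarb1, whose profile was flat, lay nearest to Pkm at 0.0867. Olr1 lay nearest to Dtwd1 at 0.164, Stab1 to Maats1 at 0.315 and Cd163 to Slc7a4 at 0.333. All of these points share the same 10 libraries.

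Other genes of the pathway were counted in lists, to be read against the shares of all tested genes that rose and fell against DMSO, 18.7% and 19.4% with EPZ5676, 20.2% and 21.2% with MI-2-2 and 6.38% and 7.54% with iBET. Without the first DMSO library these shares were 25.5% and 25.5%, 27% and 26.9%, and 13.9% and 13.9%. They were different again without the second DMSO library, so no list count is given below for that setting. Of 11 tested other scavenger receptors, 6 rose with EPZ5676 and 8 with MI-2-2 and none fell, with median log2 fold changes of 1.52 and 1.76, where the median of all tested genes was -0.06 and -0.05. Colec12, a collectin with scavenger activity, went from 2.22 and 0.0479 CPM in DMSO to 16.5 and 62.2 with MI-2-2 (log2 fold change 5.06, SE 1.13, adjusted p = 0.00965). Cd14, the lipopolysaccharide co-receptor, went from 19.0 and 13.4 to 87.2 and 99.1 CPM (2.52, SE 0.24, adjusted p = 0.000610), and fell with iBET as the 1 gene of the list that moved there (-1.19, adjusted p = 0.0185). Cd68 and Lrp1 rose with MI-2-2 by 2.34 and 2.33 on the log2 scale (adjusted p = 0.00471 and 0.00790). The list held no call with MM-401. Without the first DMSO library, 1 gene of 12 tested rose and 2 fell with iBET.

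Of 13 tested receptors for apoptotic cells other than the members, 5 rose and 2 fell with EPZ5676 and with MI-2-2, and 2 rose and 3 fell with iBET. Without the first DMSO library more of these genes rose than fell with iBET, and without the second neither side was larger. P2ry6, the receptor for UDP released by dying cells, went from 0.584 and 0.815 CPM in DMSO to 6.72 and 11.4 with MI-2-2 (3.70, SE 0.52, adjusted p = 0.00164). The phosphatidylserine receptor gene Cd300lf rose by 3.22 (adjusted p = 0.00107), Cd300lb by 1.83 (0.0433) and Itgam, an integrin chain of the complement receptor, by 2.68 (0.000876), all with MI-2-2. Tyro3, the TAM kinase that is no member of the set, stood at 2.18 and 0.240 CPM in DMSO and between 0.751 and 1.95 CPM with the inhibitors, with no call. Of 13 bridging proteins and signals, 7 rose and 1 fell with EPZ5676, 8 rose with MI-2-2, and 3 rose and 1 fell with iBET, which became 5 and 3 without the first DMSO library. C1qb, a chain of complement C1q, rose from 0.234 and 0 to 5.85 and 9.90 CPM with MI-2-2, and Anxa1 from 21.2 and 17.5 to 648 and 1245 CPM with EPZ5676. Mfge8, which bridges phosphatidylserine to integrins, rose by 4.42 with MI-2-2 (SE 0.86, adjusted p = 0.00560). Thbs1, a ligand of Cd36, was at 1955 and 907 CPM in DMSO and at 67.2 and 43.7 CPM with iBET (-4.69, SE 0.55, adjusted p = 0.00398).

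**Figure D5:**
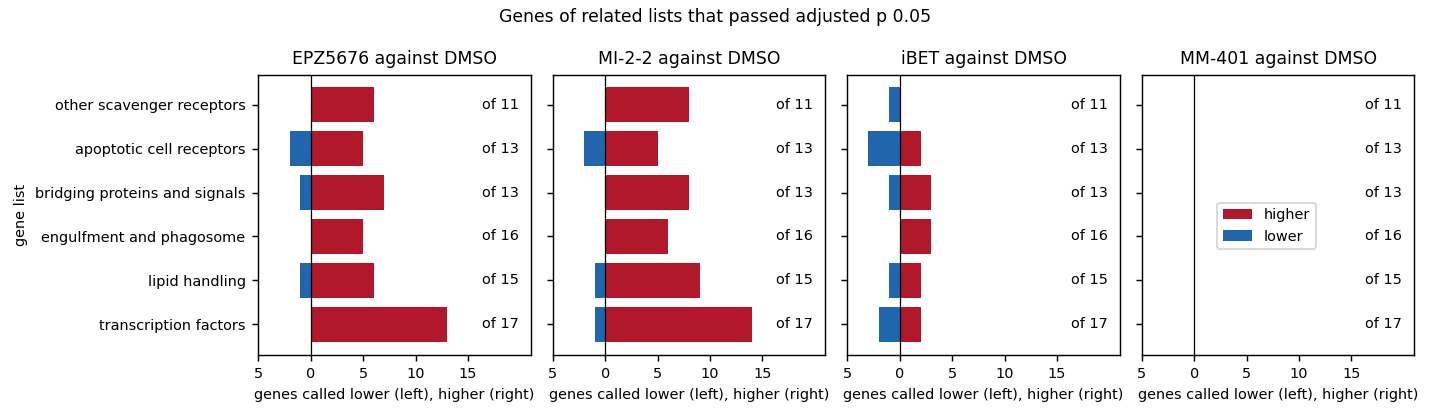
Number of genes in 6 related lists that were called higher (right of 0) or lower (left of 0) than DMSO at adjusted p below 0.05, 1 panel per inhibitor (2 libraries each), with the number tested at the right. The EPZ5676 and MI-2-2 panels lean to the right in every list, up to 14 of 17 transcription factors with MI-2-2, and the MM-401 panel is empty.

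Uptake needs a cytoskeletal and phagosomal machinery behind the receptors. Of 16 engulfment and phagosome genes, 5 rose with EPZ5676, as did 6 with MI-2-2, and iBET raised 3, and none fell. More of them rose with EPZ5676 without the first or the second DMSO library, and more with iBET without the second. A gene called lower with EPZ5676 appeared without the first. Rac2, a GTPase of the phagocytic cup, rose by 1.13 and Rab7, a GTPase of late phagosomes, by 0.69 with EPZ5676 (adjusted p = 0.00222 and 0.0218), the transporter Abca7 by 1.09 with MI-2-2 (0.00236), and the lysosomal Lamp1 by 1.27 with iBET (0.00980). Of 15 lipid handling genes, 6 rose and 1 fell with EPZ5676, and 9 rose and 1 fell with MI-2-2. With iBET 2 rose and 1 fell, and both of these counts were larger without the second DMSO library. Fabp4, a fatty acid carrier, went from 0.428 and 0.384 CPM in DMSO to 6.6 and 15.1 with EPZ5676 (4.72, SE 0.60, adjusted p = 0.00182). Lipoprotein lipase (Lpl) rose by 3.77 with MI-2-2 (adjusted p = 0.00174) and the sterol exporter Abcg1 by 2.14 with EPZ5676 (0.00118), while Apoe fell by 1.95 on the log2 scale with EPZ5676 (0.0101).

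Of 17 transcription factors known to act in macrophages, 13 rose with EPZ5676 and none fell, 14 rose and 1 fell with MI-2-2, and 2 rose and 2 fell with iBET. Maf went from 0.312 and 0.336 CPM in DMSO to 11.1 and 32.8 with MI-2-2 (6.07, SE 0.78, adjusted p = 0.00124), and Egr2, Klf4 and Rxra rose there by 3.93, 3.06 and 2.35 (adjusted p = 0.00336, 0.00138 and 0.0412). Spi1, which encodes PU.1, was at 195 and 251 CPM in DMSO, at 399 and 511 with EPZ5676 (1.03, adjusted p = 0.00402) and at 390 and 437 with MI-2-2 (0.89, adjusted p = 0.00645). Pparg, a lipid-sensing nuclear receptor under which Cd36 is induced in macrophages, was at 10.3 and 10.7 CPM in DMSO. It rose by 1.51 with EPZ5676 (adjusted p = 0.00217) and by 1.22 with MI-2-2 (0.00442), and fell by 2.12 with iBET (0.00334). Spi1, Pparg and Tyro3 were picked after their values were known. Without the first or the second DMSO library every other gene named from these 6 lists still passed the threshold. With MM-401 genes of the lists passed it only without the first DMSO library, a setting in which other tested genes passed as well. The size of several changes turned on that choice. Without the first or the second DMSO library, Colec12 stood at 9.53 or 4.18, Cd300lb at 3.55 or 1.11, Rxra at 4.76 or 1.54, Lrp1 at 1.77 or 3.28, Mfge8 at 5.35 or 3.90, Cd68 at 3.10 or 1.89, Apoe at -2.47 or -1.1, Thbs1 at -4.03 or -5.14, Lpl at 4.44 or 3.36 and Cd300lf at 3.83 or 2.83, and C1qb was left with a control of 0 reads or at 5.08. For the other named genes the values in these settings differed by less than 1 on the log2 scale.

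Markers of mature cells moved with the same inhibitors. Of 14 macrophage markers, 12 had a read in DMSO and Timd4 and Clec4f, which mark resident macrophages of tissues, were at 0 in every group, as was Vsig4 with iBET. The summed level of the list was 346 to 380 CPM in DMSO, 743 to 749 with MM-401, 3894 to 5766 with EPZ5676, 3010 to 4447 with MI-2-2 and 1102 to 1261 with iBET, and 10 of 11 tested markers rose with EPZ5676 and 10 with MI-2-2, while 2 rose and 2 fell with iBET. Most of the sum was Lyz2, lysozyme, and the other 13 markers summed to 85.3 to 98.3 CPM in DMSO, 112 to 129 with MM-401, 332 to 376 with EPZ5676, 385 to 619 with MI-2-2 and 79.7 to 113 with iBET. The 11 neutrophil markers summed to 644 to 3538 CPM in DMSO, 4492 to 5873 with MM-401, 49294 to 67509 with EPZ5676, 44843 to 45904 with MI-2-2 and 487 to 1142 with iBET, and 11 of 11 rose with EPZ5676 and with MI-2-2. Endothelial markers, relevant to Stab1 and Cd36, summed to 26.0 to 46.0 CPM in DMSO, 40.5 to 60.1 with EPZ5676, 37.0 to 83.6 with MI-2-2 and 8.0 to 9.76 with iBET, with Emcn at 0 in every group. They did not move together, since 3 of the 5 tested rose and 1 fell with EPZ5676 and with MI-2-2. Pecam1 went from 23.1 and 43.7 CPM in DMSO to 7.47 and 6.64 with EPZ5676. Lyve1 went the other way, from 0.0779 and 0.0479 CPM in DMSO to 6.74 and 11.4 with EPZ5676. Vwf rose from 2.34 and 1.87 CPM in DMSO to 20.1 and 68.6 with MI-2-2. Stromal markers summed to 8.26 to 8.63 CPM in DMSO, 32.8 to 37.0 with EPZ5676 and 22.1 to 28.9 with MI-2-2, with Col1a2, Col3a1, Dcn and Lum at 0 in every group. Dendritic, megakaryocyte, erythroid, mast cell and basophil, and lymphoid lists each summed to at most 22.2 CPM in any library. The part of these cell types in the receptor levels was not tested.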

How the data were processed

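Read counts per gene were deposited by the authors without normalization for 10 libraries, 2 per group, and groups were taken from the labels. The submitters' processing notes name TopHat2, Subread, DESeq and the build mm9. For the annotation, the strand setting and reads that match several genes, the sources used here give nothing. edgeR 4.0.16 under R 4.3.3 was run on the counts with filterByExpr, TMM factors and the functions glmQLFit and glmQLFTest, in 1 fit of all 10 libraries, with 10 comparisons between groups and Benjamini-Hochberg adjustment over the 12971 tested genes in each. The threshold was 0.05, and a standard error is the log2 fold change divided by the square root of F. A group total of 0 reads was replaced by a floor of 3 to give a lower bound, and for totals of 1 to 3 the read ratio is given with its exact binomial 95% interval.

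Replicate numbers come from the labels, which call the libraries biological duplicates without saying what a number shares. The deviations of same-numbered libraries correlated across genes in all 10 pairs of groups (Pearson's r from 0.278 to 0.666), so a fit with replicate number as a block was set beside the main one. The second DMSO library differed from the other second libraries in Y-linked reads and Xist, so its place in this pairing is uncertain. The p-values measure the spread between these samples only. Alternatives were total-count scaling, DESeq2 1.42.0 size factors, the DESeq2 test, no filter, the replicate block, and each library left out in turn. The lone library of a group is then assumed to vary like the other groups.

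The receptor genes and the lists were chosen with earlier results of these data known. All 10 receptor genes were named. From each list of other pathway genes up to 4 were named by rule, and Spi1, Pparg and Tyro3 were added. The rule took genes that passed the threshold against DMSO, reached 5 CPM in the higher group and did not overlap DMSO. Those with the largest log2 fold change were named. For the marker lists this rule was not followed throughout. The macrophage marker Siglec1, at 5.38 with MI-2-2 against DMSO, met it and was left out above. So were the neutrophil markers Retnlg, Ltf, Fpr2 and Mmp9, at 9.08, 8.06, 7.83 and 6.83 in the same comparison. The macrophage list shares genes with the other lists, Cd14 and the C1q genes among them. Calls in these lists without each DMSO library, and the macrophage marker sum without Lyz2, are alternatives chosen after seeing the data. The tests were checked on simulated data.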

Additional observations from a re-analysis of the deposited data

How the results depend on the processing

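Log2 fold changes of the receptor genes kept their direction and their side of the threshold in 757 of the computed settings, reversed in 42, lost the threshold in 64 and gained it in 19, and the count of receptor genes called moved by over 1.5 times in 14 of 90. Besides the calls given with the block in the report, pairing by replicate number changed no other call. It turned Cd163 with MI-2-2 against DMSO to 0.00185 and Scarb1 with MM-401 against iBET to -0.021, which without the filter was -0.00188. Total-count scaling turned Scarb1 to -0.084 with MI-2-2 against MM-401 and to -0.075 against iBET, and Olr1 to -0.058 with EPZ5676 against iBET. DESeq2 called 3 receptor genes with MM-401 against DMSO, where edgeR called 0.

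With 1 library left out, the count called ranged from 5 to 7 for EPZ5676, 6 to 8 for MI-2-2, 0 to 4 for iBET and 0 to 3 for MM-401 against DMSO. It ranged from 2 to 6 for EPZ5676 and 3 to 7 for MI-2-2 against MM-401, and from 4 to 6, 4 to 7 and 0 to 1 for EPZ5676, MI-2-2 and MM-401 against iBET, and stayed at 0 between EPZ5676 and MI-2-2. Wherever this count moved, the share of all tested genes called moved too. The same settings reversed differences that were not called in the fit of all libraries and were not all near 0. With all libraries these lay between -0.84 (Mertk, EPZ5676 against MI-2-2) and 0.89 (Cd163, iBET against DMSO). Against DMSO these ranged, for EPZ5676, from -0.54 to 0.043 (Scarb1) and -1.66 to 5.88 (Cd163), for MI-2-2 from -0.19 to 2.17 (Axl) and -1.24 to 6.33 (Cd163), for iBET from -1.11 to 0.37 (Msr1) and -0.058 to 7.51 (Cd163), and for MM-401 from -0.057 to 0.27 (Olr1) and -0.32 to 7.27 (Cd163). Between EPZ5676 and MI-2-2 they ranged from -0.21 to 0.11 (Olr1), -0.22 to 0.40 (Scarb1), -1.50 to 0.39 (Mertk), -0.31 to 0.74 (Stab1), -0.98 to 0.51 (Cd163) and -1.18 to 0.59 (Mrc1). Against MM-401, Scarb1 ranged from -0.18 to 0.41 with EPZ5676 and from -0.25 to 0.31 with MI-2-2. Against iBET, Olr1 ranged from -0.18 to 0.38 with EPZ5676 and -0.14 to 0.43 with MI-2-2, Scarb1 from -0.18 to 0.41 with EPZ5676, -0.25 to 0.28 with MI-2-2 and -0.27 to 0.23 with MM-401, and, with MM-401, Mertk from -0.96 to 0.10 and Cd163 from -0.63 to 0.057. The cause of these changes was not tested, other than that a fit without a library has fewer degrees of freedom. At these depths 1 read was 0.0365 to 0.0485 CPM, which limits what can be said of Cd163, Marco and Cd36 in the groups where they had few reads or none.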
